A study of Mus musculus with 30 samples.

Results

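Plac8, Treml4, Adgre4, Cytip, Itgal and Lyz2 are genes that are best known from white blood cells and that read higher on the arrays of pericyte-deficient brain vessels than on those of their controls. They are 6 of the 18194 genes represented on the array, and they were chosen by the size of their rise from controls to mutants in both models on these same arrays, so their differences between mutants and controls are given below as a description with no test. Where a gene had more than 1 probe set paired with it alone, the brightest of them on average over the 30 arrays was taken as the leading one and the others were described after it. All 6 were among the 11243 genes that were tested because their leading probe set exceeded a log2 signal of 4 on at least 3 arrays. Treml4 and Itgal passed that filter mainly through the mutants. Treml4 was above 4 on 11 of 12 mutant arrays, 0 of 12 control arrays and 1 of 6 wild-type arrays, and Itgal on 10 of 12 mutant arrays and on none of the control or wild-type arrays.

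The samples were microvascular fragments, short lengths of capillary and small vessel freed from mouse brain, whose amplified RNA was read on Affymetrix arrays, 1 array per sample. Vessels with few pericytes came from 2 mouse models of reduced platelet-derived growth factor B (PDGF-B). The ret mutants (pdgfbret/ret, C57/B6/J, 4 arrays, 7 to 10 months) lack the retention motif of PDGF-B on both alleles and were set against heterozygotes (pdgfbret/+, 4 arrays, 8 to 10 months), so the ret controls carry 1 ret allele themselves and their labels name no brain region. The R26P mutants (Tie2Cre, R26P+/0, pdgfb-/-, mixed C57/SV129 background) have no mouse Pdgfb and make human PDGF-B from a transgene that Cre switches on in Tie2-expressing cells, and the controls (R26P+/0, pdgfb+/+) carry the same transgene in its silent state. Both R26P genotypes were measured in cerebellum and in cerebrum, with 4 arrays per genotype and region, and their titles give an age of 1 year where the age field gives 2 months. Wild-type mice (C57/B6/J, Notch3+/+, 2 months) supplied 3 arrays of cerebellum and 3 of cerebrum. Tie2 is also expressed by some blood-forming cells, so the Cre of the R26P mutants, which their controls lack, is not limited to endothelium by that promoter.

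White blood cells travel in the blood and enter tissue by slowing on the endothelium, holding on through integrins and crossing the vessel wall. In healthy brain this traffic is low, and the resident immune cells are microglia in the tissue and macrophages in the space around vessels. Monocytes, which patrol the vessel lining or enter tissue to become macrophages, are commonly divided into classical and nonclassical kinds. Lyz2, Adgre4, Treml4 and Plac8 belong largely to the myeloid side: Lyz2 encodes the lysozyme of monocytes, macrophages and neutrophils, Adgre4 an adhesion receptor of the EGF-TM7 family found on macrophages and monocytes, Treml4 a receptor of the TREM family on myeloid cells, and Plac8 a small cysteine-rich protein of myeloid and lymphoid cells. Itgal encodes the alpha chain of LFA-1, the integrin through which leukocytes grip ICAM proteins on endothelium, and Cytip encodes a cytohesin-binding protein of blood cells that limits LFA-1 adhesion.

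Signals are log2 values on a scale whose lowest value is 2.16 on the ret and R26P arrays and 2.17 on the wild-type arrays. A value near that floor means a signal not separated from background, so a difference from such a group has no exact size. The wild-type arrays had been normalized apart from the others and were compared only between their own regions. In bulk RNA of this kind, fewer cells of a type and less RNA per cell cannot be told apart.

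The RNA carried the transcripts of brain endothelium on every array. Cldn5, the tight junction protein of brain endothelium, lay between 14.99 and 15.92, and Slco1a4, an organic anion carrier of the same cells, between 15.39 and 16.10 on the 30 arrays. Mouse Pdgfb lay between 4.73 and 8.01 on the 8 R26P mutant arrays, against 12.05 to 12.86 on the 8 R26P control arrays, so the R26P genotype labels held. The pericyte receptor gene Pdgfrb lay between 8.11 and 9.27 in ret mutants, against 11.60 to 12.02 in ret controls. Xist, which marks female cells, was above 8 on 3 of 4 ret mutant arrays and on 3 of 4 ret control arrays, although the sex labels of the ret controls run the other way. Earlier work on these data left the region labels of R26P mutant pair 3 unsettled, and pituitary transcripts (growth hormone, Gh, above 8) lay on ret mutants 1, 2 and 4, R26P mutant cerebrum 2 and 3, R26P control cerebrum 2 and 3, R26P mutant cerebellum 3 and wild-type cerebrum 3.

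The stretches of genome just upstream of these genes are shown because the genes varied together from array to array, and promoter motifs are a feature that the choice of genes did not use. RefSeq (mouse build GRCm38.p6) gave a start for 5 of the 6 genes, and Itgal is named only. The 250 bases before the start are printed 5′ to 3′ on the strand of the gene, in lower case, with capitals for matches on either strand to 3 short motifs of blood-cell factors: GAGGAA, a core of ETS factors such as PU.1, TGTGGT, a core of RUNX factors, and TTGCNNAA, a core of C/EBP factors. No matches overlapped in the windows shown. The windows are chr5:100572206-100572455 (minus strand) for Plac8, chr17:48264045-48264294 (plus strand) for Treml4, chr17:55749734-55749983 (plus strand) for Adgre4, chr2:58160123-58160372 (minus strand) for Cytip, chr10:117282273-117282522 (minus strand) for Lyz2 and chr10:117292869-117293118 (minus strand) for the neighbouring lysozyme gene Lyz1.
Plac8: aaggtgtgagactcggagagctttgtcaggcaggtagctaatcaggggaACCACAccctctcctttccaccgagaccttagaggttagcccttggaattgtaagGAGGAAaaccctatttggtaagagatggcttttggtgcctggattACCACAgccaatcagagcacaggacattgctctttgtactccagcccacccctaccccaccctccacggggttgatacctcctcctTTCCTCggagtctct
Treml4: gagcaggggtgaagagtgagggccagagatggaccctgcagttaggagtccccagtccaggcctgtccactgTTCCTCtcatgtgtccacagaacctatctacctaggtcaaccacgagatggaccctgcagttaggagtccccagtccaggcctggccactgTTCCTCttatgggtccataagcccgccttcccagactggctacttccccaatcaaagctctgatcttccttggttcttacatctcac
Adgre4: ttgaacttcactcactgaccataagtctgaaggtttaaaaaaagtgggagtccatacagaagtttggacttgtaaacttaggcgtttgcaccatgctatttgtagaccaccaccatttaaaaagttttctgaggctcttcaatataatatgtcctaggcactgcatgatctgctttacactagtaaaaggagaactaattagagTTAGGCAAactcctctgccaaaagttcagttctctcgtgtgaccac
Cytip: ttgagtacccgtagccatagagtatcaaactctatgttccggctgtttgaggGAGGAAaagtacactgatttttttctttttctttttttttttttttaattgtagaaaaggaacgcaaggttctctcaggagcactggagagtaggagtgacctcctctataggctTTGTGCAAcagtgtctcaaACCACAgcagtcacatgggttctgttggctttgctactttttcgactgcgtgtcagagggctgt
Lyz2: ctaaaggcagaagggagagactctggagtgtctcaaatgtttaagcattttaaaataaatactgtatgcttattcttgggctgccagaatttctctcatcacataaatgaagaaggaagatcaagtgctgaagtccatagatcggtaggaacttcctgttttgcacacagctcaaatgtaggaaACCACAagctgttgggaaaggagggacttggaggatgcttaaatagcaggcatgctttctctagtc
Lyz1: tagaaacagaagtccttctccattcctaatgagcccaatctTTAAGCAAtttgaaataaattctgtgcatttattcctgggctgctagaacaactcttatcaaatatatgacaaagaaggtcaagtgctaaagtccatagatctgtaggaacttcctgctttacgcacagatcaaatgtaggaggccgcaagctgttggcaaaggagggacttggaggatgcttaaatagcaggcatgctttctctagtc

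The Plac8 window held 2 matches to GAGGAA and 2 to TGTGGT, and the Treml4 window held 2 matches to GAGGAA. The Cytip window held 1 match to each of the 3 motifs. The Adgre4 window held 1 match to TTGCNNAA, as did the Lyz1 window, and the Lyz2 window held 1 match to TGTGGT. Among all 32851 mouse windows of this length, 23.3% held GAGGAA, 14.0% held TGTGGT and 9.56% held TTGCNNAA. A further start of Plac8, at chr5:100563097-100563346, had 1 match to TTGCNNAA and is not printed. These matches are letters in a window and were not tested as binding sites. Lyz2 and Lyz1 are next to each other in the RefSeq gene table, and their windows matched at 200 of 252 aligned positions (79.4%), with the last 50 bases before the start identical.

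Plac8 was higher in the mutants of both models, without overlap except in cerebellum. On its single probe set, 1451335_at, it read 8.64, 7.96, 9.68 and 10.15 in ret mutants 1 to 4, against 4.50, 2.77, 2.77 and 2.78 in ret controls 1 to 4. The lowest mutant lay 3.46 above the highest control, and ret control 1 alone among the controls lay clearly above the level shared by the other 3. The means were 9.11 ± 0.99 in ret mutants and 3.20 ± 0.86 in ret controls (SD, n = 4 each), a difference of 5.90. In cerebrum, Plac8 read 8.82, 8.34, 8.36 and 11.28 in R26P mutants 1 to 4, against 2.77, 3.50, 4.75 and 5.14 in R26P controls 1 to 4. These groups did not overlap either (difference 5.16), and mutant 4 stood well above the other 3 mutants. In cerebellum it read 7.35, 5.96, 8.47 and 10.62 in R26P mutants 1 to 4, against 3.81, 5.63, 4.50 and 8.13 in R26P controls 1 to 4. Control 4 lay above mutants 1 and 2, so the cerebellar groups overlapped (difference 2.59). The wild-type arrays read 4.10, 4.07 and 5.38 in cerebellum and 4.72, 4.47 and 6.09 in cerebrum, with number 3 the highest in both regions.

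R26P control cerebellum 4, the control with the high Plac8, also carried transcripts of developing granulocytes and of platelets that the other arrays lacked or held at lower levels. Mpo, myeloperoxidase of granulocyte precursors, read 7.16 there, Ngp, a neutrophil granule protein, read 5.67, Ppbp, a platelet chemokine, read 10.43, and Pf4, platelet factor 4, read 11.58. Their part in the Plac8 value was not tested. Without that array the cerebellar difference of Plac8 was 3.46 and the groups did not overlap.

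Treml4 separated mutants from controls in both models and both regions. On probe set 1460014_at it read 6.35, 6.47, 6.17 and 6.91 in ret mutants 1 to 4, against 2.57, 2.49, 2.16 and 2.16 in ret controls 1 to 4. The 4 mutants lay close together, far above controls that sat at or near the floor (difference 4.13). In cerebrum it read 6.92, 6.32, 7.44 and 9.44 in R26P mutants 1 to 4, against 2.49, 2.49, 2.76 and 2.53 in R26P controls 1 to 4. The gap between the lowest mutant and the highest control was 3.56, and the difference of the means was 4.96. In cerebellum it read 5.23, 3.48, 7.20 and 8.95 in R26P mutants 1 to 4, against 2.16, 2.38, 2.52 and 2.36 in R26P controls 1 to 4. The mutants spread widely here (SD 2.37, against 0.15 in controls), yet even mutant 2, the lowest, lay above all 4 controls (difference 3.86). In wild type the gene read 2.35, 2.27 and 2.19 in cerebellum and 3.55, 2.92 and 4.79 in cerebrum. All 3 cerebrum arrays were thus above all 3 cerebellum arrays, which lay near the floor.

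Adgre4 was higher in ret mutants and in R26P mutant cerebrum without overlap. On its leading probe set, 1451563_at, it read 8.37, 7.92, 8.69 and 8.70 in ret mutants 1 to 4, against 5.60, 3.43, 3.59 and 3.45 in ret controls 1 to 4. As with Plac8, ret control 1 was the high control, and it still lay 2.32 below the lowest mutant (difference of means 4.40). In cerebrum it read 7.70, 7.13, 8.22 and 10.12 in R26P mutants 1 to 4, against 3.58, 3.58, 5.32 and 4.38 in R26P controls 1 to 4. Mutant 4 was again the highest array (difference 4.08). In cerebellum it read 6.19, 5.40, 7.96 and 9.38 in R26P mutants 1 to 4, against 3.36, 3.59, 5.03 and 5.51 in R26P controls 1 to 4. The overlap there rested on mutant 2, which lay 0.12 below control 4 (difference 2.86). Wild-type arrays read 4.53, 4.21 and 5.85 in cerebellum and 5.32, 5.32 and 6.37 in cerebrum.

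The other Adgre4 probe set, 1424998_at, ran the same way from a lower base. It lay between 2.74 and 4.88 in ret mutants, against 2.16 on all 4 ret controls. It lay between 2.29 and 7.14 in R26P mutant cerebrum and between 2.16 and 4.95 in R26P mutant cerebellum, against 2.16 on all 8 R26P controls, with mutant 4 the highest in both regions.

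Cytip, which binds the cytohesins that activate LFA-1, was above 4 on every array and averaged higher in mutants. Probe set 1435697_a_at read 9.47, 9.38, 10.09 and 10.30 in ret mutants 1 to 4, against 6.56, 4.36, 4.72 and 4.39 in ret controls 1 to 4. The groups did not overlap, and the difference of 4.80 corresponds to 27.9-fold on the deposited scale. Ret controls 2 to 4 may lie at the base of this probe set, so that fold has no exact size. In cerebrum it read 8.76, 8.71, 9.28 and 11.52 in R26P mutants 1 to 4, against 4.39, 4.22, 7.57 and 5.47 in R26P controls 1 to 4. Control 3 was the high control but stayed 1.14 below the lowest mutant (difference of means 4.15). In cerebellum it read 7.89, 7.39, 9.15 and 11.24 in R26P mutants 1 to 4, against 5.96, 4.61, 7.15 and 7.84 in R26P controls 1 to 4. Mutant 2 lay below control 4, so these groups overlapped (difference 2.53). Wild-type arrays read 7.37, 6.90 and 7.40 in cerebellum and 6.33, 7.06 and 7.81 in cerebrum, with no common direction between regions.

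The 2 further Cytip probe sets agreed in direction with the leading one where they rose above their base. Probe set 1451206_s_at lay between 7.27 and 8.17 in ret mutants against 3.66 to 4.79 in ret controls, and between 6.15 and 9.58 in R26P mutant cerebrum against 3.66 to 5.33 in R26P control cerebrum. In cerebellum it overlapped, at 5.23 to 9.20 in R26P mutants against 3.58 to 5.33 in R26P controls. Probe set 1443928_at sat at 3.33 on all 4 ret controls and all 4 R26P control cerebrum arrays and reached 4.71 in ret mutants and 5.95 in R26P mutant cerebrum.

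Itgal, the LFA-1 alpha chain, was at or just above the floor on every control array and higher than that on every mutant array. Probe set 1435560_at read 4.97, 4.28, 4.74 and 5.93 in ret mutants 1 to 4, against 2.27, 2.20, 2.20 and 2.27 in ret controls 1 to 4. In cerebrum it read 4.40, 4.58, 5.52 and 7.90 in R26P mutants 1 to 4, against 2.20, 2.20, 2.21 and 2.20 in R26P controls 1 to 4. In cerebellum it read 3.47, 2.56, 5.04 and 7.22 in R26P mutants 1 to 4, against 2.20, 2.24, 2.27 and 2.20 in R26P controls 1 to 4. No groups overlapped in the 3 comparisons, with differences of 2.75 in ret, 3.40 in R26P cerebrum and 2.35 in R26P cerebellum, and R26P mutant cerebellum 2 was only 0.28 above the highest control. Wild-type arrays read 2.23 throughout, apart from 2.65 on cerebrum 1. The other Itgal probe set, 1425367_at, sat at the lowest value on all 30 arrays and shows no difference of any kind.

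Lyz2 was bright on every array and had the smallest differences of the 6 genes. Probe set 1423547_at read 11.32, 11.70, 11.76 and 12.45 in ret mutants 1 to 4, against 9.92, 8.52, 9.38 and 8.86 in ret controls 1 to 4. The groups were 1.40 apart at their nearest, with means of 11.81 ± 0.47 in ret mutants and 9.17 ± 0.61 in ret controls (SD, n = 4 each; difference 2.64). In cerebrum it read 11.28, 11.41, 11.36 and 13.11 in R26P mutants 1 to 4, against 10.40, 9.68, 10.79 and 10.92 in R26P controls 1 to 4. Mutants 1 to 3 lay close together and mutant 4 stood apart (difference 1.34, or 0.91 without mutant 4). In cerebellum it read 11.23, 10.94, 11.55 and 13.13 in R26P mutants 1 to 4, against 11.28, 11.01, 11.46 and 11.83 in R26P controls 1 to 4. The difference of 0.32 rested on mutant 4, and without that array it was −0.15. Wild-type arrays read 10.09, 9.84 and 10.68 in cerebellum and 9.94, 9.83 and 10.36 in cerebrum.

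Lysozyme signal cannot be given to Lyz2 alone, because Lyz1 is a near copy and their probe sets may share transcripts. The leading Lyz1 probe set, 1436996_x_at, averaged 13.38 in ret mutants and 11.33 in ret controls, and followed Lyz2 within groups with a correlation of 0.98 over 24 arrays. The Lyz1 probe set 1450822_at averaged 2.20 in ret mutants and 2.19 in ret controls, at the floor.

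**Figure D1:**
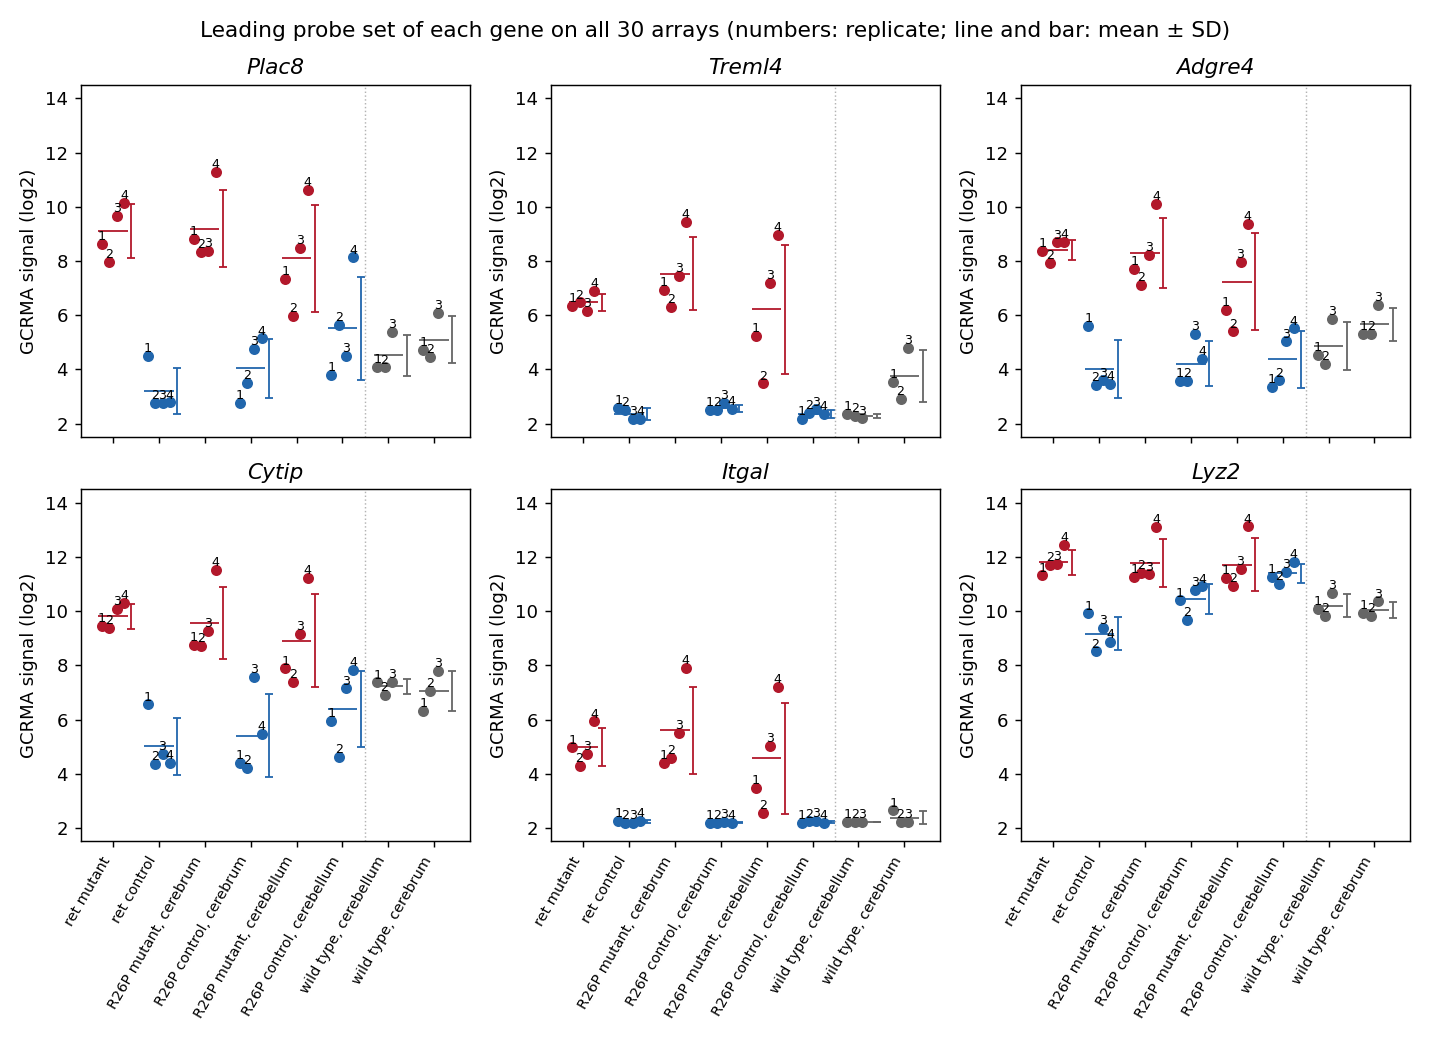
Log2 signal (vertical axis) of the leading probe set of each gene on the 30 arrays by group (horizontal axis), numbered by replicate, with group mean and SD. Mutants (red) stand above controls (blue) in ret and R26P cerebrum for all 6 genes, mutant 4 is the highest mutant in every mutant group, and wild type (grey, right of the dotted line) was normalized apart.

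Across the group of 6, no ret mutant overlapped a ret control for 6 of 6 genes, where 11.7% of all genes tested were higher without overlap. The median difference was 4.26 over the 6 genes (range 2.64 to 5.90) and 0.01 over all genes tested. In R26P cerebrum 6 of 6 did not overlap, where 12.9% of all genes tested were higher without overlap, with a median difference of 4.11 (range 1.34 to 5.16; all genes 0.01). In R26P cerebellum 2 of 6 did not overlap, Treml4 and Itgal, where 11.3% of all genes tested were higher without overlap, with a median difference of 2.56 (range 0.32 to 3.86; all genes 0). Nothing is read from these counts, since the genes were picked for this rise, and the difference between the 2 regions was not tested. The ret and R26P comparisons share no arrays.

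In the mutant groups and in ret controls 1 array was the highest for all 6 genes. In R26P control cerebellum and in wild type the only exceptions were Treml4 and Itgal at values near the floor. Number 4 was the highest array for 6 of 6 genes among ret mutants and among R26P mutants of either region. R26P mutant cerebellum 2 was the lowest for 6 of 6, and ret control 1 was the highest of its group for 6 of 6. For Itgal, ret controls 1 and 4 both read 2.27, near the floor. In R26P control cerebrum the highest array was number 3 for 4 genes and number 4 for 2, and in R26P control cerebellum it was number 4 for 4 genes and number 3 for 2. The 2 genes led by number 3 in R26P control cerebellum were Treml4 (2.52) and Itgal (2.27). In wild type number 3 was the highest for 4 genes in cerebellum and for 5 in cerebrum. Number 1 led for Treml4 (2.35) and Itgal (2.23) in cerebellum and for Itgal (2.65) in cerebrum. The mean of the 6 genes was 10.56 on R26P mutant cerebrum 4 and 7.75 to 8.36 on the other 3 mutant cerebrum arrays, against 4.28 to 5.57 on R26P control cerebrum arrays. In cerebellum it was 10.09 on R26P mutant 4 and 5.95 to 8.23 on the other mutants, against 4.79 to 6.31 on controls. Without mutant 4, 6 of 6 genes still did not overlap in cerebrum (differences 0.91 to 4.47) and 2 of 6 did not in cerebellum (−0.15 to 2.95). Without R26P control cerebellum 4, the count in cerebellum was 5 of 6, and without R26P mutant cerebellum 2 it was 4 of 6, so that count moved with single arrays. Without ret control 1, 6 of 6 did not overlap in ret, with differences of 2.76 to 6.33. The arrays left out here were those at the high or low end of their groups. Leaving out an array can only take overlap away, and no share over all genes was computed for the smaller groups. Nothing is therefore read from these counts.

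Pituitary RNA was present on some arrays and is given beside these genes. Of 8 pituitary genes tested, 2 rose in ret mutants and 0 changed in either R26P region. Ret mutant 3, with Gh at 2.84, had Plac8 at 9.68 and Cytip at 10.09, and R26P mutant 4, with Gh at 2.90 in cerebrum and 2.17 in cerebellum, was the highest R26P mutant for each of the 6 genes. R26P control cerebrum 2 and 3, with Gh at 14.19 and 14.58, had Treml4 at 2.49 and 2.76 and Itgal at 2.20 and 2.21. On the same 2 arrays Adgre4 read 3.58 and 5.32, and Cytip 4.22 and 7.57. The mean of the 6 genes there was 4.28 and 5.57, the lowest and the highest of that group. Wild-type cerebrum 3, with Gh at 13.93, was the highest of its group for 5 of 6 genes. The part of pituitary RNA in the values of the 6 genes was not tested.

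Region itself was no part of how the genes were picked, and cerebellum and cerebrum were tested within a genotype with limma (Benjamini-Hochberg adjustment over 11243 genes). Wild-type arrays took no part in the choice at all, whereas the R26P arrays used here are those of the mutant comparisons. A choice by rise can favour low controls and high mutants in either region. The R26P region tests are therefore not independent of the choice and are given as description. Arrays with the same number in the 2 regions deviated together, and results that a block on the number changes are given with it. Itgal was above 4 on no wild-type array, and Treml4 on 1, with all 3 cerebellum arrays near the floor. The region tests of these genes in wild type therefore say nothing. Of the other 4 genes, 0 passed in wild type, where 2.12% of all genes did, 1.78% higher and 0.338% lower in cerebellum (135 genes instead of 238 with the block). Treml4 averaged 2.27 ± 0.08 in cerebellum and 3.75 ± 0.95 in cerebrum (SD, n = 3 each). Its difference of −1.48 is taken from a group near the floor and has no exact size. Treml4 was lower in cerebellum in 3 of 3 pairs without overlap, and 11.8% of all genes tested were lower without overlap. Plac8 (−0.57, standard error 0.55) and Adgre4 (−0.81, standard error 0.51) were also lower in cerebellum in 3 of 3 pairs, and limma gave adjusted p values of 0.662 and 0.502, or 0.0740 and 0.0821 with the block. Cytip and Lyz2 differed by 0.15 and 0.16. On the same arrays 5 of 14 microglia genes were called lower in cerebellum and 0 higher, and the part of microglia in the wild-type values was not tested.

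Treml4 and Itgal were above 4 on no R26P control array, so their region tests among controls say nothing. Of the other 4 genes, 0 passed in R26P controls without the block, where 1.17% of all genes did, 0.889% higher and 0.285% lower in cerebellum. Lyz2 averaged 11.40 ± 0.35 in cerebellum and 10.45 ± 0.56 in cerebrum (SD, n = 4 each), a difference of 0.95 with a standard error of 0.29 and a limma adjusted p of 0.203. The 2 groups did not overlap, and 5.35% of all genes tested were higher and 2.77% lower without overlap. Lyz2 was higher in cerebellum in 4 of 4 pairs, by 0.68 to 1.33, and passed with the number as a block (limma adjusted p = 0.0220), in a fit that called 475 genes instead of 132. The choice of the genes used these same arrays, so this p does not stand apart from it. The leading Lyz1 probe set was higher by 0.81 (limma adjusted p = 0.229 without the block). Plac8 and Cytip were higher in cerebellum in 3 of 4 pairs and Adgre4 in 2 of 4, with differences of 1.47, 0.98 and 0.16 (limma adjusted p = 0.542, 0.691 and 0.941).

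In R26P mutants 0 of 6 genes passed, and 0.0% of all genes tested did (0 by limma, with 621 at an unadjusted p below 0.05). No gene of the 6 separated the regions, where 2.1% of all genes tested were higher and 0.667% lower in cerebellum without overlap. The differences of Plac8, Treml4, Adgre4, Cytip and Itgal lay between −1.32 and −0.65, and that of Lyz2 was −0.08. Each had a limma adjusted p of 1, or 0.284 to 0.785 with the block, with no gene of 11243 called. Mutants 1 and 2 were lower in cerebellum for 6 of 6 genes, mutant 3 for 4 and mutant 4 for 5. In mutant 2 the cerebellum lay 2.84 below the cerebrum for Treml4, 2.38 for Plac8 and 2.03 for Itgal, whereas in mutant 4 the largest such gap was 0.74, for Adgre4. The region difference was not tested between mutants and controls.

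**Figure D2:**
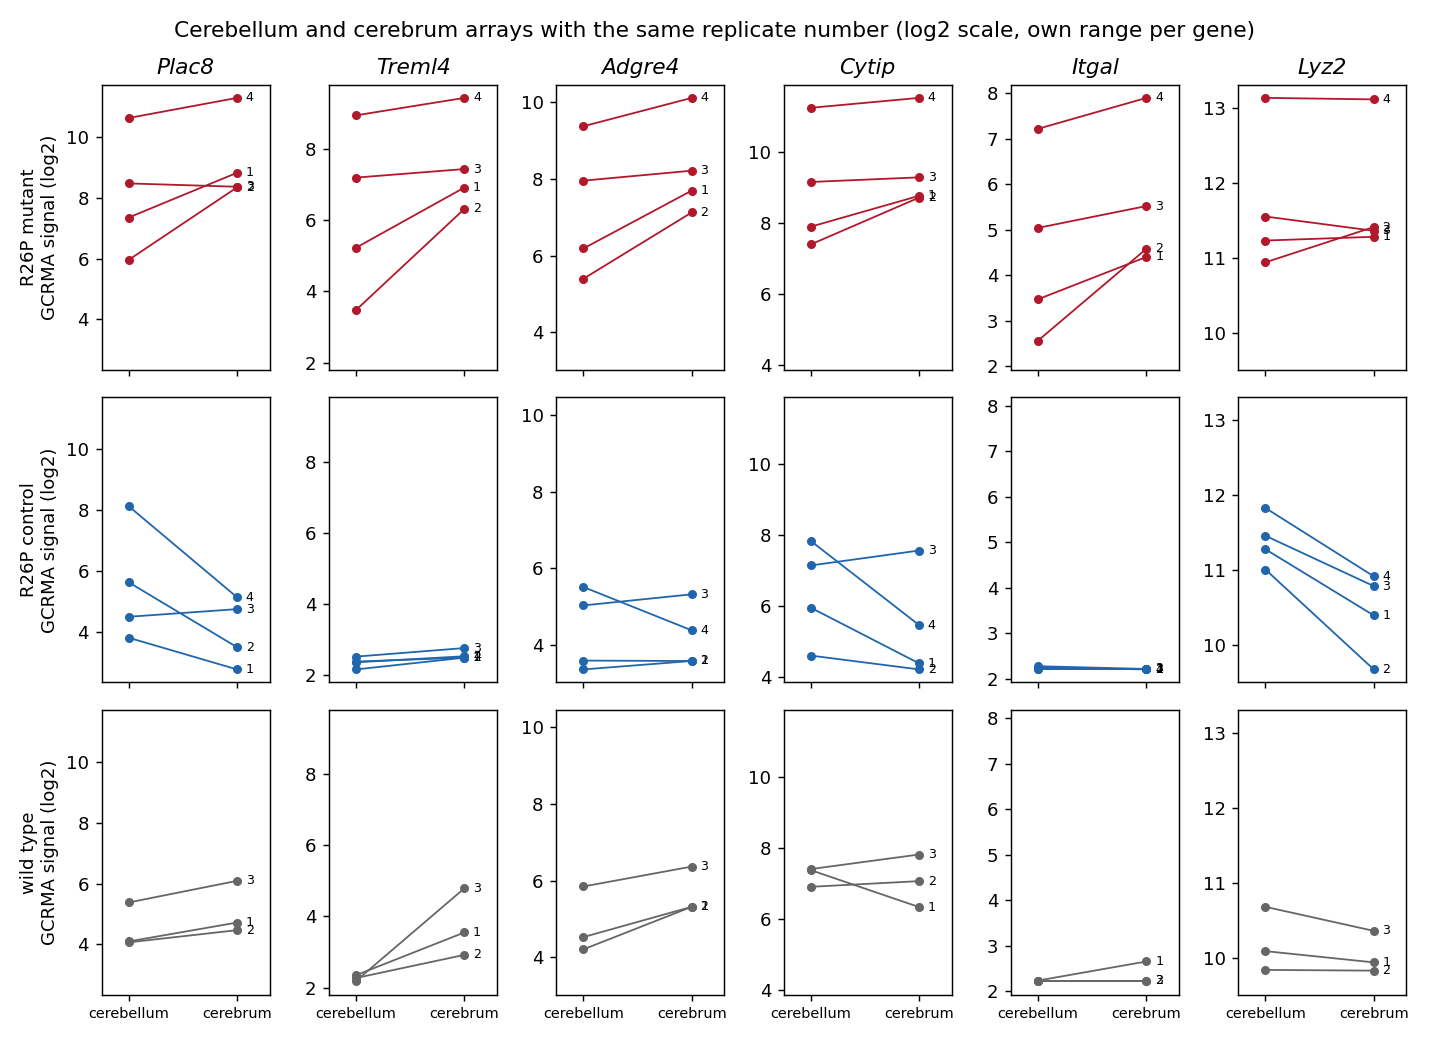
Log2 signal (vertical axis, own range per gene) of cerebellum (left) and cerebrum (right) arrays joined by replicate number, in R26P mutants (top), R26P controls (middle) and wild type (bottom). Lyz2 lies higher in cerebellum in 4 of 4 R26P control pairs, and R26P mutant 4 stays the highest mutant in both regions. Treml4 lies lower in cerebellum in 3 of 3 wild-type pairs, with its cerebellum values near the floor.

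Other genes of blood leukocytes were followed through lists that were chosen with earlier results of these data known. The 6 lists of blood leukocyte types hold 88 genes besides the 6, of which 78 are on the array and 36 were tested, while 37 were never above 4 on any array. In ret mutants 13 of the 36 rose and 4 fell, where 16.6% of all genes tested were called, 8.0% higher and 8.63% lower. In R26P cerebrum 3 rose and 5 fell, where 18.7% were called, 8.35% higher and 10.3% lower, and in R26P cerebellum 1 rose and 3 fell, where 15.6% were called, 6.94% higher and 8.7% lower. The median differences were 0.65, 0.20 and 0.10, against medians over all genes tested of 0.01, 0.01 and 0.

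Nonclassical monocytes are the kind that patrols vessel walls. Of 13 genes listed for them and tested, 8 rose and 2 fell in ret mutants, 2 rose and 3 fell in R26P cerebrum, and 0 rose and 1 fell in R26P cerebellum. The Fc receptor gene Fcgr4 averaged 6.10 ± 1.33 in ret mutants and 3.29 ± 0.31 in ret controls (SD, n = 4 each; difference 2.81, limma adjusted p = 0.0192). Clec4a3, a lectin receptor of myeloid cells, averaged 9.27 in ret mutants and 7.33 in ret controls (difference 1.94, limma adjusted p = 0.0057), and the leukocyte sialoglycoprotein gene Spn averaged 4.50 in ret mutants and 3.08 in ret controls (difference 1.42, limma adjusted p = 8.7e-04). Pglyrp1, a bacterial peptidoglycan-binding protein that neutrophils carry, fell in all 3 comparisons, with differences of −1.38 in ret, −1.20 in R26P cerebrum and −0.82 in R26P cerebellum (limma adjusted p = 0.0064, 0.0058 and 0.0303). Ace and Gngt2, which rose in R26P cerebrum by 1.08 and 0.97 (limma adjusted p = 0.0031 and 0.0493), are not limited to monocytes either, as Ace is the angiotensin-converting enzyme of endothelium. Both are also among the 8 genes that rose in ret mutants. Nr4a1, also on this list, had its largest change in R26P cerebrum and fell. It averaged 10.51 in R26P mutants and 11.80 in R26P controls (difference −1.30, limma adjusted p = 0.0433), and the groups overlapped.

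Of 10 classical monocyte genes tested, 3 rose in ret mutants, 1 rose in each R26P region, and none fell. Ms4a4c, a membrane protein of the MS4A family, averaged 5.72 ± 0.95 in ret mutants and 2.61 ± 0.65 in ret controls (SD, n = 4 each; difference 3.10, limma adjusted p = 0.0069), and its relative Ms4a6c averaged 8.83 in ret mutants and 6.94 in ret controls (difference 1.89, limma adjusted p = 0.0086). The gene that rose in both R26P regions was Mgst1, a glutathione transferase found in many cell types, by 1.08 in cerebrum and 0.82 in cerebellum (limma adjusted p = 0.0011 and 0.0090). Mgst1 was also 1 of the 3 that rose in ret mutants (difference 0.96, limma adjusted p = 0.0093). Ccr2, the chemokine receptor that defines classical monocytes, was between 3.45 and 4.22 on the 24 ret and R26P arrays. On the 6 wild-type arrays, normalized apart, it was between 4.50 and 4.85.

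Of the genes on the array, 13 of 15 T cell, 11 of 13 natural killer and cytotoxic, 7 of 14 neutrophil, 5 of 11 B cell and 9 of 9 red cell genes were never above 4. Of 3 neutrophil genes tested, Il1b, an inflammatory cytokine that macrophages also make, rose in ret mutants (7.72 in ret mutants and 4.90 in ret controls, difference 2.82, limma adjusted p = 0.0181) and none passed in R26P. Cxcr2, the neutrophil chemokine receptor, stayed at 2.16 or 2.17 on all arrays. Of 2 natural killer and cytotoxic genes tested, the chemokine Ccl5 rose in ret mutants, with 4.36 ± 0.49 in ret mutants and 2.71 on all 4 ret controls (difference 1.65, limma adjusted p = 0.0032). In R26P, Ccl5 read 7.64 on mutant cerebrum 4 and 6.79 on mutant cerebellum 4, against 2.71 on the other arrays, and did not pass in either region (limma adjusted p = 0.452 and 0.470). Nkg7 and Ncr1 of natural killer cells, Cd3d and Cd3g of T cells and Pax5 of B cells read 2.16 or 2.17 on all 30 arrays. Zap70 and Pou2af1 fell in all 3 comparisons, with differences for Zap70 of −1.87 in ret, −0.90 in R26P cerebrum and −1.44 in R26P cerebellum, and for Pou2af1 of −1.75, −1.69 and −1.68 (limma adjusted p up to 0.0395 and up to 0.0216). They were the genes called among 2 T cell and 6 B cell genes tested. Cd22, a sialic acid-binding receptor on the B cell list, read 7.40 on R26P mutant cerebrum 4 and 8.18 on R26P mutant cerebellum 4, against 5.95 to 6.89 on R26P controls, and correlated at 0.79 with the mean of the 6 genes within groups. The part of B cells in the values of the 6 genes was not tested. Alas2, of haem synthesis in red cells, reached 2.50, and none of 4 platelet genes tested passed in any mutant comparison. Haemoglobin probe sets paired with several genes were not used here.

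The pan-leukocyte list holds genes that leukocytes share and that microglia also express. Of 15 tested, 7 rose and none fell in ret mutants (median difference 0.92), and none passed in R26P cerebrum (median −0.26) or cerebellum (median −0.30). Cd52, a surface glycoprotein of leukocytes, averaged 9.59 ± 0.78 in ret mutants and 7.80 ± 0.27 in ret controls (SD, n = 4 each; difference 1.80, limma adjusted p = 0.0161), and Ptprc, the common leukocyte antigen CD45, averaged 11.63 in ret mutants and 10.30 in ret controls (difference 1.33, limma adjusted p = 0.0093). The mean signal of the 15 genes ran from 9.26 to 9.96 in ret mutants, against 8.30 to 8.97 in ret controls, and from 8.80 to 10.67 in R26P mutant cerebrum, against 8.63 to 10.02 in R26P control cerebrum. In cerebellum it ran from 8.29 to 10.29 in R26P mutants, against 8.67 to 9.71 in R26P controls.

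Resident immune cells were measured beside these genes. Of 14 microglia genes tested, 0 changed in ret mutants, P2ry12, a purine receptor of microglia, fell in R26P cerebrum (11.27 in R26P mutants and 12.69 in R26P controls, difference −1.42, limma adjusted p = 0.0414), and 0 changed in R26P cerebellum. The median differences of the list were 0.59 in ret, −0.95 in R26P cerebrum and −0.71 in R26P cerebellum. Its mean signal ran from 11.23 to 12.14 in ret mutants, against 10.59 to 11.43 in ret controls, and its part in the ret values was not tested. In R26P it ran from 10.28 to 12.06 in mutant cerebrum, against 11.06 to 12.37 in control cerebrum, and from 9.54 to 11.50 in mutant cerebellum, against 10.38 to 11.32 in control cerebellum. Of 9 perivascular macrophage genes tested, 2 rose in ret mutants, 3 fell in R26P cerebrum and 2 fell in R26P cerebellum, with none the other way. The scavenger receptor genes Cd36 and Stab1 rose in ret mutants by 2.01 and 0.74 (limma adjusted p = 0.0015 and 0.0014). Mrc1 and Cd163, receptors that define these macrophages, fell in R26P cerebrum (differences −1.71 and −1.43, limma adjusted p = 0.0481 and 0.0253) and in R26P cerebellum (differences −1.43 and −2.13, limma adjusted p = 0.0144 and 0.0063). Cd36 read 6.98 on R26P mutant cerebrum 4 and 6.39 on R26P mutant cerebellum 4, against 3.03 to 4.34 on R26P controls, and did not pass in either region. The mean signal of the 12 perivascular macrophage genes on the array ran from 4.60 to 5.95 in ret mutants, against 4.53 to 4.83 in ret controls. It ran from 4.64 to 6.10 in R26P mutant cerebrum, against 4.94 to 5.63 in R26P control cerebrum, and from 4.73 to 5.87 in R26P mutant cerebellum, against 5.24 to 5.57 in R26P control cerebellum. The part of these macrophages in the values of the 6 genes was not tested.

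Of 17 genes of leukocyte recruitment tested, 3 rose and 1 fell in ret mutants, 4 rose and 2 fell in R26P cerebrum, and 4 rose and 2 fell in R26P cerebellum. Cx3cl1, the membrane-bound chemokine that nonclassical monocytes recognise, averaged 11.77 ± 0.18 in ret mutants and 10.18 ± 0.46 in ret controls (SD, n = 4 each; difference 1.59, limma adjusted p = 0.0037). It also rose in R26P cerebrum (11.77 in mutants and 10.08 in controls, difference 1.69, limma adjusted p = 1.9e-04) and in R26P cerebellum (11.75 in mutants and 9.93 in controls, difference 1.82, limma adjusted p = 1.2e-04). Vcam1, an adhesion ligand on inflamed endothelium, rose by 0.43, 0.64 and 0.74 in the 3 comparisons (limma adjusted p = 0.0390, 0.0364 and 0.0228). The junctional adhesion gene Jam2 fell in ret and in R26P cerebrum (differences −0.91 and −0.62) and Jam3 in R26P cerebrum and cerebellum, with differences of −1.74 and −1.75 (limma adjusted p = 0.0018, 0.0092, 0.0237 and 0.0025). Itga4, the integrin chain that binds VCAM1, fell in R26P cerebellum by 1.61 (limma adjusted p = 0.0064).

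**Figure D3:**
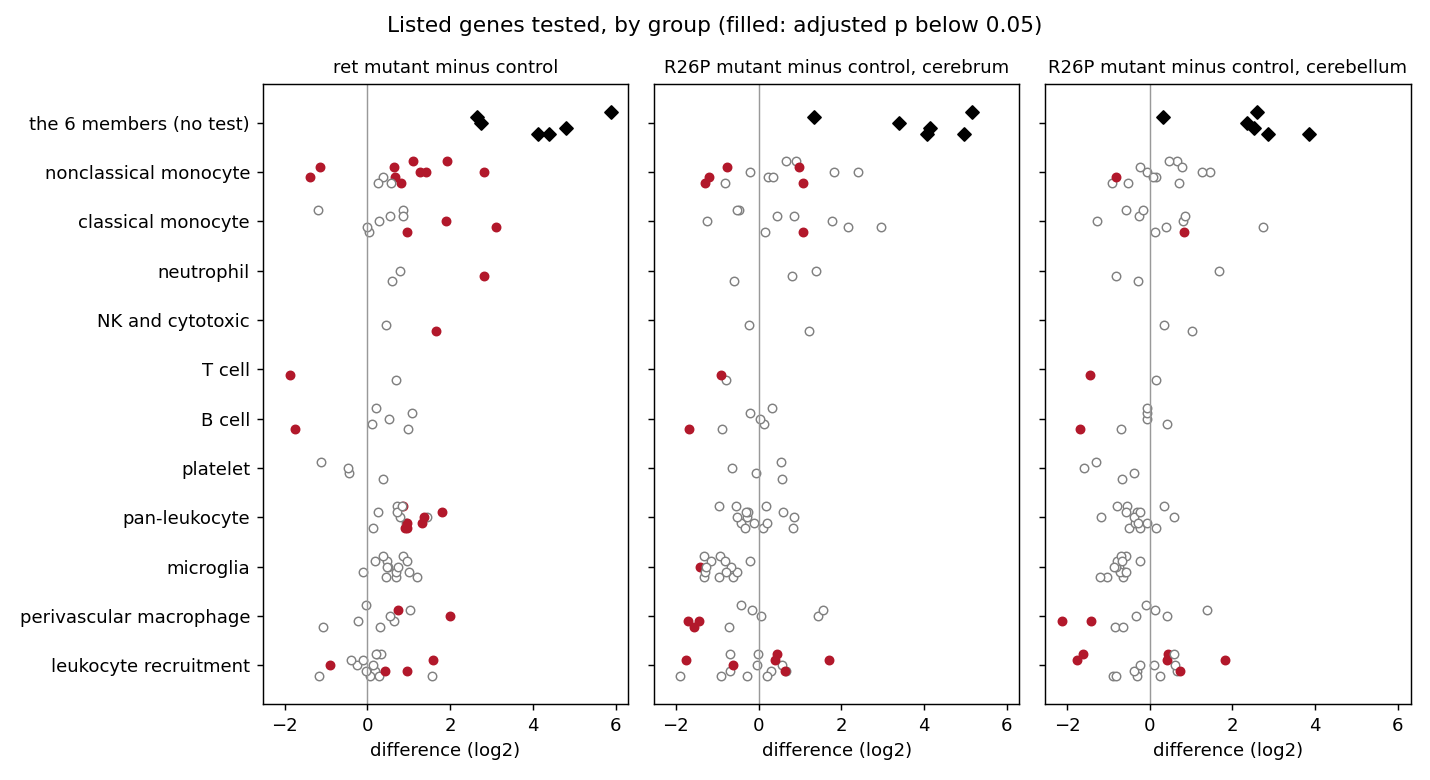
Difference between mutant and control on the log2 scale (horizontal axis) of each tested gene, by list (rows), in ret, R26P cerebrum and R26P cerebellum. Diamonds are the 6 genes, which carry no test, filled circles passed at an adjusted p below 0.05, and the pan-leukocyte row holds 7 filled circles in ret and none in R26P.

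Among relatives of the 6 genes, 3 of 13 tested rose and 2 fell in ret mutants, 1 rose and 0 fell in R26P cerebrum, and 3 rose and 1 fell in R26P cerebellum. Of all genes tested, 8.0%, 8.35% and 6.94% rose in these comparisons, and 8.63%, 10.3% and 8.7% fell. In ret 1 of the 3 that rose was Lyz1, whose signal cannot be parted from that of Lyz2, so it adds no separate gene. Adgre1, which encodes a surface antigen of macrophages and belongs to the family of Adgre4, averaged 10.71 in ret mutants and 9.62 in ret controls (difference 1.09, limma adjusted p = 0.0356). Adgre5, which encodes CD97 of the same family, fell in ret mutants and rose in R26P cerebellum, with differences of −0.75 and 0.44 (limma adjusted p = 0.0250 and 0.0163). Adgrl4, an adhesion receptor of endothelium, rose in all 3 comparisons. In R26P cerebrum and in R26P cerebellum the difference was 0.29 each (limma adjusted p = 0.0331 and 0.0138). In ret it read 14.87 to 14.95 in mutants, against 14.51 to 14.63 in controls. Cyth1, which encodes a cytohesin of the kind that CYTIP binds, rose in R26P cerebellum by 0.46 (limma adjusted p = 0.0131).

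The 6 genes varied together from array to array inside groups. After group means had been subtracted over the 24 ret and R26P arrays, the Pearson correlation between pairs of them ran from 0.68, for Cytip and Itgal, to 0.95, for Itgal and Treml4. Treml4 and Itgal were above 4 on 0 of 12 control arrays and hardly varied there. Every correlation with either of them therefore rests on the mutant arrays. The 24 arrays share their normalization, and R26P arrays of 1 number deviate together between regions, so these values describe the arrays and carry no test. Of the other 11237 genes tested, those most like the mean of the 6 were Cybb, Ms4a4c and Clec4a3 (0.94 each), Ms4a6c and Igsf6 (0.93 each), Glipr1, Cd44, Myo1g and Ptprc (0.92 each) and Ms4a6b (0.91), where the median over all genes was −0.11 and 1% of them lay above 0.81. Cybb encodes the catalytic subunit of the phagocyte oxidase, Cd44 a hyaluronan receptor of many cells, and Myo1g a myosin of blood cells.

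Cybb read 7.94, 8.21, 8.30 and 8.98 in ret mutants 1 to 4, against 5.81, 3.94, 4.33 and 3.90 in ret controls 1 to 4, with ret control 1 again the highest control. In cerebrum it read 7.76, 7.74, 8.28 and 10.74 in R26P mutants 1 to 4, against 5.39, 6.44, 7.26 and 6.67 in R26P controls 1 to 4, with mutant 4 again apart. Its difference was 3.87 in ret (limma adjusted p = 0.0017), 2.19 in R26P cerebrum (0.0687) and 0.64 in R26P cerebellum (0.581). All 10 genes rose in ret mutants, by 1.21 to 3.87, 1 of them, Cd44, rose in R26P cerebrum (difference 2.50, limma adjusted p = 0.0211) and 0 of 10 passed in R26P cerebellum. By list, the median correlation with the mean of the 6 was 0.82 for pan-leukocyte, 0.77 for nonclassical monocyte, 0.77 for neutrophil, 0.73 for natural killer and cytotoxic, 0.70 for classical monocyte, 0.70 for microglia, 0.65 for perivascular macrophage and 0.57 for B cell genes. It was 0.46 for relatives, 0.29 for platelet, 0.25 for recruitment, 0.14 for T cell and −0.09 for pituitary genes. The neutrophil list had 3 tested genes and the T cell and natural killer lists 2 each.

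The genes most like each single member were these. Fpr2, a formyl peptide receptor of phagocytes, led for Treml4 and for Itgal (0.94 each), followed by Nuak2 (0.94) and Clec4e (0.90) for Treml4 and by Clec4e (0.94) and Gpnmb (0.93) for Itgal. Clec4e read 5.91 to 9.54 on R26P mutants 3 and 4 of both regions and 2.16 to 2.48 on all other ret and R26P arrays. Its correlations therefore rest on those mutants. Gpnmb lay between 3.30 and 3.53 on all ret arrays and reached 5.84 on R26P mutant cerebrum 4. Cybb (0.90), Glipr1 (0.88) and Nfkbie (0.88) were most like Adgre4, and Glipr1 (0.92), Wfdc17 (0.90) and Specc1 (0.89) most like Cytip. Plac8 had the lowest leading values, with Cd44 (0.84), AI662270 (0.84) and Clec4a2 (0.83), and Lyz2 the highest, with Lyz1 (0.98), Il17ra (0.96) and Clec4a3 (0.95).

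**Figure D4:**
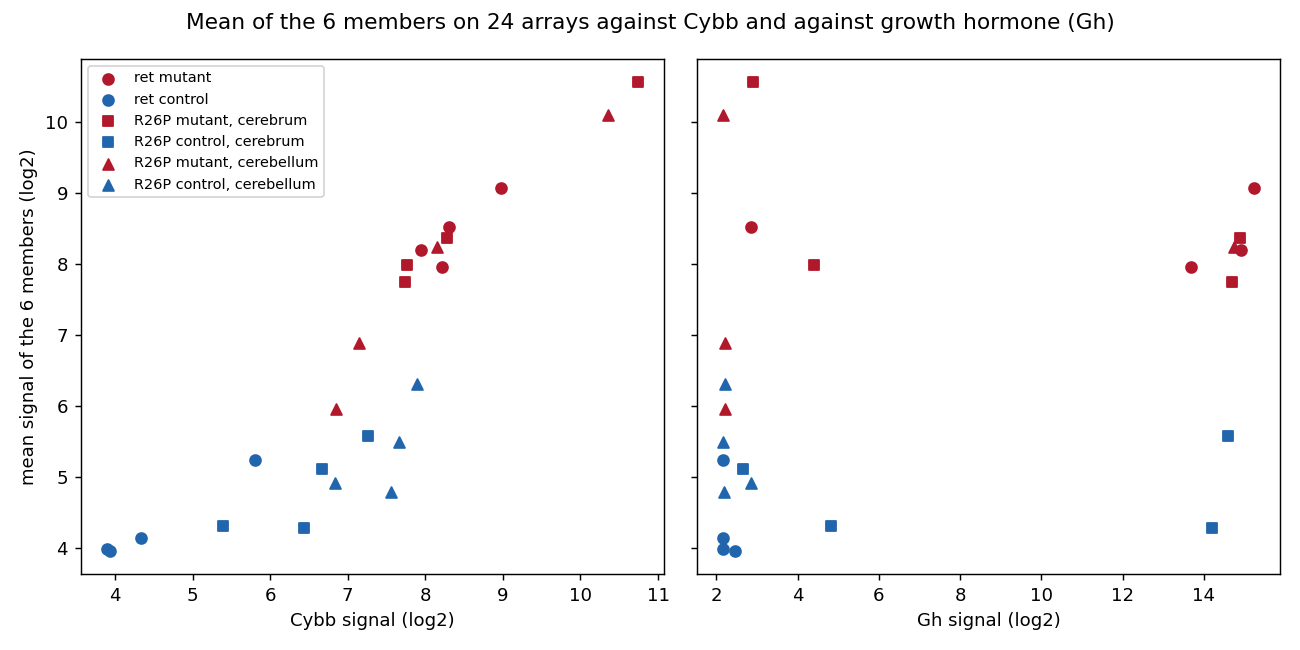
Mean log2 signal of the 6 genes (vertical axis) against the log2 signal of Cybb (left) and of growth hormone, Gh (right), on 24 arrays, with mutants in red and controls in blue. The R26P control cerebellum arrays have Cybb between 6.84 and 7.89 with means of 4.79 to 6.31. R26P mutant cerebellum 2, with Cybb at 6.85, has a mean of 5.95, inside that range, and the other mutant arrays of like Cybb lie above it. The correlation of 0.94 given for Cybb was taken after group means were removed. Arrays with Gh near 2 or 3 include the highest mean, 10.56.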

How the data were processed

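RNA of microvascular fragments of mouse brain was measured on 30 Affymetrix arrays. The deposited values are log2 signals that the authors made with GCRMA 2.6.0 under R 2.4.1, per the submitters' processing notes, and they were used as deposited. Array depth has no meaning here, and the number of arrays limits the precision. The lowest value showed 2 normalization batches: 24 ret and R26P arrays at 2.16 (35.8% to 37.0% of values) and 6 wild-type arrays at 2.17 (32.3% to 32.7%), so genotype and batch cannot be told apart between them. Of 45101 probe sets, 34958 were paired with 1 gene (34754 with an identifier in the reference table, 0 symbols replaced), 932 with several and 9211 with none. Each of 18194 genes was represented by its probe set of highest mean, and 11243 genes above 4 on at least 3 arrays were tested.

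Groups came from the labels, which call the samples biological replicates. Comparisons were fitted with limma 3.58.1 in R 4.3.3 (lmFit, eBayes, two-sided, Benjamini-Hochberg, adjusted p below 0.05, compared groups only); "rose" and "fell" are used of genes past it. The procedure was tested on simulated data. For the 2 regions, same-numbered arrays correlated at 0.34 to 0.84 after removal of group means, so the numbers pair them (the data show this and the labels share the numbers); between mutants and controls the correlations ran from −0.20 to 0.34 and the numbers do not pair. The 6 genes and all lists were chosen with earlier results of these data known. Named genes are the 6, up to 4 called genes with the largest change per list and mutant comparison (the 2 brightest where none was called), and those most like the 6; Mpo, Ngp, Ppbp, Pf4, Ccr2, Cxcr2, Alas2, Cd22, Nkg7, Ncr1, Cd3d, Cd3g and Pax5 were named after their values were seen. Promoter windows came from RefSeq and were compared with Biopython 1.88. Alternatives covered filters, probe set choice, prior, normalization, replicate block and left-out arrays.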

Additional observations from a re-analysis of the deposited data

Results flagged for a closer look

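In groups of 4 arrays, a value was marked when its gap to the nearest other array was an unusually large part of the range of the group. For normally spread values chance marks about 1 in 20 such groups. That rate does not hold where arrays share a low base, as Plac8 does on ret controls 2 to 4. Of 33 groups examined, 6 were marked, and the 2 numbers are not weighed against each other. Ret control 1 was marked for Plac8, at 4.50 against 2.77 to 2.78 on the other 3 controls, for Adgre4, at 5.60 against 3.43 to 3.59, and for Cytip, at 6.56 against 4.36 to 4.72. R26P mutant cerebrum 4 was marked for Plac8, at 11.28 against 8.34 to 8.82 on the other mutants, and for Lyz2, at 13.11 against 11.28 to 11.41. Treml4 on R26P control cerebrum 3 was marked at 2.76 against 2.49 to 2.53, all near the lowest value. The marks are not independent, since the genes vary together.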

How the results depend on the processing

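With few arrays per group and several controls at the floor, sizes of difference are loose; the counts below moved with the setting and, unless the setting itself removes arrays or genes or averages probe sets, the cause was not tested. Genes called in ret (1870) were 1229 without the filter, 987 with the replicate block, 919 without arrays with Gh above 8 (1 mutant left) and 1153 to 1931 leaving out single arrays; in R26P cerebrum (2097) 1390, 1278, 237 and 1387 to 1945; in R26P cerebellum (1758) 1081 without the filter, 1117 without Gh arrays and 1117 to 1572 leaving out arrays. Other blood leukocyte genes higher in ret (13) were 8 under the stricter filter, 7 with the block, 7 without Gh arrays and 9 to 16 leaving out arrays; in R26P cerebrum (3) 1 without Gh arrays and 2 to 3; in R26P cerebellum (1) 2 with the mean of probe sets, 3 after renewed quantile normalization, 3 with the block and 1 to 2. The median difference of the 6 genes was 3.06 in ret and 2.73 in R26P cerebrum with the mean of probe sets, and leaving out arrays gave 4.14 to 4.56, 3.49 to 4.66 and, in R26P cerebellum, 1.75 to 3.17. Between regions, genes called in wild type (238) were 58 without the filter, 135 with the block and 12 to 159 leaving out arrays; in R26P controls (132) 47, 475 and 48 to 193, and 68 with the mean of probe sets; in R26P mutants (0) 1 without the filter, 15 without both arrays of number 3 and 0 to 42. The block called 1 of the 6 genes in R26P controls (Lyz2) and changed no other call on the 6; leaving out arrays called 0 in each region test. Leaving out single arrays also turned the direction of Lyz2 in R26P cerebellum (−0.15 without mutant 4, up to 0.57); in wild type of Cytip (−0.22 without cerebrum 1, up to 0.52) and Lyz2 (−0.08 without cerebellum 3, up to 0.34); in R26P controls of Adgre4 (−0.06, −0.22, −0.05 and −0.05 without cerebellum 3 or 4 or cerebrum 1 or 2, up to 0.53); and in R26P mutants of Lyz2 (0.08, 0.18 and 0.36 without cerebellum 1 or 2 or cerebrum 4, down to −0.55). Removing both R26P mutant arrays of number 4, chosen after seeing the data, called 0 of the 6. Between mutants and controls the replicate numbers share no source and same-numbered arrays did not all correlate best with each other.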
